A study of Mus musculus with 10 samples.

Results

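The cornified envelope genes of the epidermis were examined in tumors that the mouse colon carcinoma line MC38 had formed under the skin of C57BL/6 mice. They were taken as every gene with an array probe of its own whose symbol starts with Lce or Sprr, together with Lor, Ivl, Flg2, Hrnr, Rptn, Krtdap, Sbsn, Tgm1, Tgm3, Cnfn, Kprp and Crct1. This gave 44 of the 19938 genes measured, each with 1 probe. A further 7 symbols that meet the rule in the RefSeq table, among them Flg and Sprr2a1, were present only on shared probes or on none and are not analysed here as genes. RNA was measured on 10 whole-transcript arrays, 1 per mouse. Tumors of 5 mice, with an area of about 40 mm2, were injected with CpG1826 (50 µg, in 50 µL PBS) and taken 6 h after that. CpG1826 is a synthetic DNA ligand of the innate receptor TLR9. The tumors of the other 5 mice received PBS; the protocol is worded alike for both groups and gives no separate time for PBS. All 10 mice carried the same subcutaneous line, and beside the strain the labels used here give no genotype, sex or age. All levels are the deposited values on a log2 scale, and fold changes are CpG1826 over PBS.

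The cornified envelope is a protein shell that replaces the plasma membrane of keratinocytes as they leave the granular layer and become dead, flattened corneocytes. Transglutaminases cross-link its precursors. Involucrin lays the scaffold, small proline-rich proteins (Sprr) bridge it, loricrin reinforces it, and late cornified envelope (Lce) proteins are added last. Most of the precursor genes stand side by side in the epidermal differentiation complex. Which cells of these tumors made their RNA was not tested. The genes were divided here by textbook order into 17 early genes (Ivl, Tgm1, Krtdap, Sbsn and the Sprr genes) and 27 late genes (the Lce genes, Lor, Flg2, Hrnr, Rptn, Tgm3, Cnfn, Kprp and Crct1).

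Part of the envelope programme was higher in CpG1826 tumors, and no member passed the threshold as lower. Of the 44 genes, 13 rose at a limma adjusted p under 0.05, against 3.56% of all genes tested that rose and 4.66% that changed in either direction. By limma 0 members fell. Without adjustment, at a p under 0.05, 20 were higher and 0 lower, against 8.13% and 7.43% of all genes, which is also the background for the unadjusted counts of the other lists. In whole tumors a change in the number of keratinocytes and a change in RNA per keratinocyte cannot be told apart. The 5 CpG1826 values lay above all 5 PBS values for 12 of the 44, against 4.35% of all genes. The rises ran from 1.28-fold for Sprr2h to 5.28-fold for Krtdap, and 5 of the 13 reached at least 2-fold. The median log2 fold change over the 44 genes was 0.23, and over all genes -0.02.

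Early and late genes both contributed. Of the 17 early genes 6 rose: Krtdap, Sbsn, Tgm1, Sprr1a, Sprr1b and Sprr2h. Of the 27 late genes 7 rose: Hrnr, Lce1c, Kprp, Lor, Lce1i, Lce1a1 and Lce1h. The median log2 fold change was 0.17 for the early and 0.24 for the late genes. The early count rests on where the Sprr genes are placed: with them counted as late, 3 of the remaining 4 early genes rose, at a median of 0.65. The difference between the classes was not tested. The early class mean over its genes lay between 4.58 and 4.80 in PBS tumors and between 4.98 and 5.53 in CpG1826 tumors on the log2 scale. The late class mean lay between 5.03 and 5.21, and between 5.35 and 5.86. The highest CpG1826 value was that of mouse 189 in each class, and that of mouse 50 came next.

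**Figure D1:**
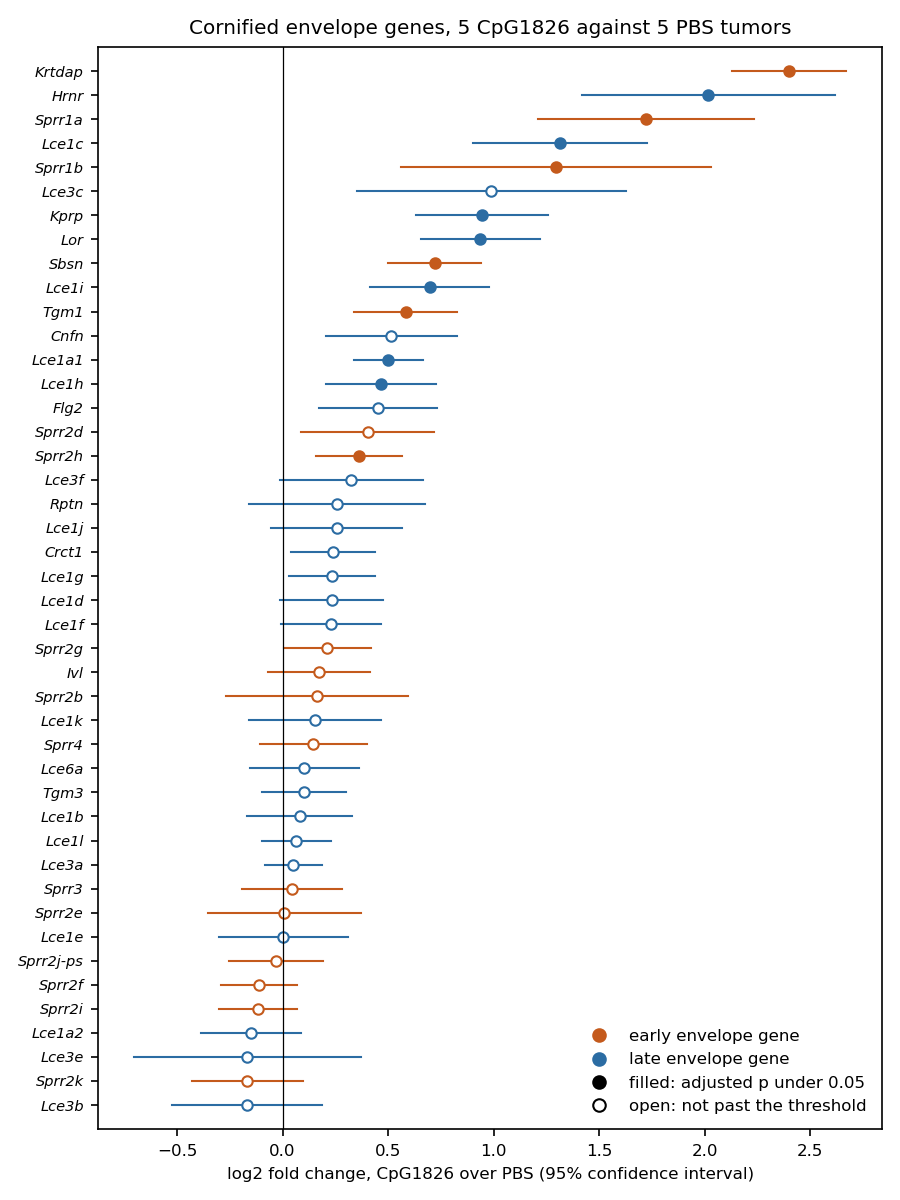
Log2 fold change (CpG1826 over PBS, horizontal axis) of the 44 envelope genes with 95% confidence intervals from limma, sorted by size, for 5 tumors per group. Orange marks early and blue late genes; filled points passed an adjusted p under 0.05. The 13 filled points span 0.36 to 2.40 and mix the colours, and no filled point lies below 0.

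Early and late genes, as classed here, differed in how often a sequence motif stood near their start. RefSeq promoter windows (GRCm38.p6, 250 bases before to 50 after the transcription start) were available for 39 of the 44 genes, as 40 windows. AP-1 is a Fos and Jun dimer long linked to keratinocyte differentiation. Its letters TGANTCA, a palindrome read on both strands, stood in 12 of 16 early windows and in 3 of 24 late windows, against 7.81% of all 32851 windows. Most of these 12 early windows belong to Sprr genes, and the rest are those of Krtdap, Sbsn and Ivl. The contrast thus depends in part on where the Sprr genes are placed, and it was not tested. The windows of Sprr2d and Sprr2e share 264 of 300 positions and those of Sprr2e and Sprr2i 217, so the early windows are not independent. By response, the letters stood in 6 of 13 windows of genes that rose and in 9 of 27 of the rest. The KLF letters CACCC, on either strand, stood in 57.5% of the members' windows and in 57.5% of all windows. A match of letters describes the window and does not show that a factor binds there. The 6 windows below are those of the 4 genes with the largest rise, of Lor as the main late protein and of Ivl as the early scaffold gene that did not pass. Each is given 5′ to 3′ on the gene's own strand, and capitals mark the AP-1 letters.
Krtdap: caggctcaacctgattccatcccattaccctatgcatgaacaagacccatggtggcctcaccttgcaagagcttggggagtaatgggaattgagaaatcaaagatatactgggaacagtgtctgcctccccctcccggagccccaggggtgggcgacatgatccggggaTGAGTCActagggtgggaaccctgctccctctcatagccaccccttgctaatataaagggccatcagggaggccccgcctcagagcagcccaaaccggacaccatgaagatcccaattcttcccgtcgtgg
Hrnr: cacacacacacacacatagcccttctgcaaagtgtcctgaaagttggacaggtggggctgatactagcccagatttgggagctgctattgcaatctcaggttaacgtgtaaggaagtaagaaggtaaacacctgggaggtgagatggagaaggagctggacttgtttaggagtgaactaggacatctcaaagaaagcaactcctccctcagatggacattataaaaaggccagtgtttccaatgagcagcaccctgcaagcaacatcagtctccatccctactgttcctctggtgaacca
Sprr1a: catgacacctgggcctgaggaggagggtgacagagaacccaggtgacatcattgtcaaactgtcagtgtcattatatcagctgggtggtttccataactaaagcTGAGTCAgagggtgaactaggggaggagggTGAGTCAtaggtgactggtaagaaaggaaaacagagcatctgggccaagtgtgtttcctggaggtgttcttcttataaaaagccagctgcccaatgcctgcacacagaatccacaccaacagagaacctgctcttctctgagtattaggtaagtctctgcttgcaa
Lce1c: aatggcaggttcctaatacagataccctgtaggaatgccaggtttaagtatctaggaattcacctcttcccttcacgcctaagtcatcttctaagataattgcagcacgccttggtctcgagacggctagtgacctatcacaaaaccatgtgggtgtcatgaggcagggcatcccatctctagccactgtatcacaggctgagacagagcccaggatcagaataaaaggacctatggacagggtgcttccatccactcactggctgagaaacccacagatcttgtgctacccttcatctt
Lor: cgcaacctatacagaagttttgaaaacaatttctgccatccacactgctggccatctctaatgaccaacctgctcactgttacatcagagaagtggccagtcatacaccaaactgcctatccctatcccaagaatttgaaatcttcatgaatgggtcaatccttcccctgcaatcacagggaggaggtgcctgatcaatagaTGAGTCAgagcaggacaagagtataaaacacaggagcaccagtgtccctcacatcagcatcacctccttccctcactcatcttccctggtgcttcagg
Ivl: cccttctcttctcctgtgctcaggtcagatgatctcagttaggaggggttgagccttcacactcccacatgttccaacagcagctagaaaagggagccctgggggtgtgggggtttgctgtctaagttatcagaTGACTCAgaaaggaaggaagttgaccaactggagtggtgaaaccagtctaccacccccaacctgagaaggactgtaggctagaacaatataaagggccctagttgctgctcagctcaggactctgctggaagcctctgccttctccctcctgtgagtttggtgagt
They lie at chr7:30787655-30787954, plus strand (Krtdap), chr3:93319499-93319798, plus strand (Hrnr), chr3:92485832-92486131, minus strand (Sprr1a), chr3:92678997-92679296, plus strand (Lce1c), chr3:92083093-92083392, minus strand (Lor) and chr3:92573686-92573985, minus strand (Ivl). The Sprr1a window holds 2 matches, from -146 to -140 and from -116 to -110 relative to the start. Krtdap has 1 from -81 to -75, Lor 1 from -48 to -42 and Ivl 1 from -116 to -110, while Hrnr and Lce1c have none in these 300 bases. Among these 6, then, genes with and without the letters rose.

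Values of single tumors are given below in the order of mice 26, 29, 482, 592 and 661 for PBS and 50, 58, 183, 189 and 595 for CpG1826. Krtdap and Sbsn encode small proteins secreted by suprabasal keratinocytes, and their genes lie on chromosome 7, outside the differentiation complex. Krtdap stood at 3.74, 3.90, 3.54, 3.56 and 3.85 in PBS and at 6.26, 5.99, 5.68, 6.29 and 6.37 in CpG1826 tumors. The groups were far apart and the CpG1826 tumors close to each other, although the mean level of Krtdap over all arrays lies in the bottom 25% of genes. Its log2 fold change was 2.40 ± 0.13 (SE, n = 5 per group), a 5.28-fold rise with a 95% interval of 4.37 to 6.37 (adjusted p = 1.92e-07 by limma, Benjamini-Hochberg over all genes). Sbsn was at 5.91, 5.92, 5.90, 5.60 and 5.97, and at 6.77, 6.39, 6.36, 6.78 and 6.61. Its groups did not overlap either, and it rose 1.65-fold (1.42 to 1.92, limma adjusted p = 0.000827). Within each array the gap between Krtdap and Sbsn changed by 1.68 on the log2 scale, in 5 of 5 CpG1826 tumors beyond any PBS tumor.

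Among the cross-linking enzymes and the scaffold gene, Tgm1 passed, while Tgm3 and Ivl did not. The differences between these genes were not tested. Tgm1, the membrane-bound transglutaminase that starts cross-linking, was at 6.73, 6.81, 6.93, 6.53 and 7.05 in PBS and at 7.58, 7.14, 7.23, 7.64 and 7.38 in CpG1826 tumors. It rose 1.50-fold (1.26 to 1.78, limma adjusted p = 0.00851), with a narrow gap between the groups. Tgm3, the enzyme of later cross-linking and of hair, did not pass (log2 fold change 0.10, 95% confidence interval -0.10 to 0.30). Its values overlapped, from 5.87 to 6.08 in PBS and from 5.83 to 6.28 in CpG1826 tumors. Ivl, which encodes involucrin, was at 4.74, 4.55, 4.47, 4.10 and 4.52, and at 4.64, 4.82, 4.57, 4.80 and 4.42. These ranges overlapped, and the log2 fold change of 0.17 had an interval of -0.07 to 0.41, so a rise of up to 1.33-fold is within it.

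Among the small proline-rich genes the Sprr1 pair rose, and most Sprr2 genes with a probe of their own did not pass. Sprr1a was at 6.50, 6.62, 7.10, 6.78 and 6.90 in PBS and at 8.81, 8.10, 7.77, 9.37 and 8.46 in CpG1826 tumors. All CpG1826 tumors were above the PBS range, those of mice 189 and 50 the most. It rose 3.30-fold (2.32 to 4.71, limma adjusted p = 0.000647). Sprr1b, its close paralog, was at 5.14, 5.40, 5.88, 5.56 and 5.69, and at 7.52, 5.99, 6.11, 8.08 and 6.45. The tumors of mice 58 and 183 were just above the PBS range, while that of mouse 189 was 2.54 above the PBS mean. Its rise of 2.45-fold (1.48 to 4.08) passed narrowly (limma adjusted p = 0.0471). That call was lost when any 1 of the PBS mice, or mouse 50, 189 or 595, was left out, 8 of 10 such fits (limma adjusted p of 0.0202 to 0.132 over the 10), and with a trended prior (0.111) or array weights (0.0563). How far the probes of the paralogs cross-hybridise was not tested.

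Of the 9 Sprr2 genes, Sprr2h rose by 0.36 ± 0.09 (SE, 1.28-fold, limma adjusted p = 0.0462) and the others lay between -0.17 for Sprr2k and 0.40 for Sprr2d. Sprr2h was at 4.91, 4.69, 4.95, 4.75 and 4.85 in PBS and at 5.20, 4.89, 5.17, 5.43 and 5.26 in CpG1826 tumors. The tumor of mouse 58 lay inside the PBS range, and the call was lost in 9 of the 10 fits that leave out 1 mouse, all but that without CpG1826 mouse 58 (limma adjusted p of 0.00863 to 0.125 over the 10). Sprr2d did not pass (limma adjusted p = 0.178). Sprr3, of internal stratified epithelia, and Sprr4 were at 0.04 and 0.15 and did not pass. Probes that share several Sprr2 symbols were left out of the gene test and are described in the closing section. Within each array the gap between Sprr1a and Sprr3 changed by 1.68 on the log2 scale, in 5 of 5 CpG1826 tumors beyond any PBS tumor.

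Loricrin and the fused S100 genes make up the granular layer part of the list. Lor encodes the most abundant envelope protein. It was at 5.71, 5.79, 5.80, 5.63 and 5.93 in PBS and at 7.13, 6.76, 6.88, 6.33 and 6.45 in CpG1826 tumors. The groups did not overlap, and here the tumor of mouse 189 was the lowest of the 5 CpG1826 tumors rather than the highest. Lor rose 1.92-fold (1.58 to 2.33, limma adjusted p = 0.000692). Hrnr, which encodes hornerin, a filaggrin-like protein, was at 6.20, 6.34, 6.45, 6.25 and 6.65, and at 9.34, 8.41, 7.80, 8.92 and 7.50. Its spread among CpG1826 tumors (SD 0.76) was wider than among PBS tumors (SD 0.18), and the groups were clearly apart. Its rise of 4.05-fold (2.67 to 6.13, limma adjusted p = 0.000647) was the largest among the late genes.

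The other fused S100 genes did not pass. Flg2, a filaggrin relative, had a log2 fold change of 0.45 (0.17 to 0.73, limma adjusted p = 0.0753), with values of 3.90 to 4.44 in PBS and 4.42 to 4.97 in CpG1826 tumors. These ranges overlapped narrowly. It passed with array weights (limma adjusted p = 0.0457) and in 0 of the 10 fits without 1 mouse (0.0504 to 0.175). Rptn, which encodes repetin, was at 4.24, 4.02, 4.13, 3.88 and 4.08 in PBS and at 4.15, 4.11, 4.04, 5.25 and 4.10 in CpG1826 tumors. Only the tumor of mouse 189 left the PBS range upward. The gap between Hrnr and Rptn within an array changed by 1.76 on the log2 scale, in 5 of 5 CpG1826 tumors beyond any PBS tumor. Such gaps were taken for 5 pairs of genes picked with their values in view, so they are given as a description with no test. The other 2 were Tgm1 over Tgm3 (0.48) and Lor over Ivl (0.76), again in 5 of 5 CpG1826 tumors beyond any PBS tumor.

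**Figure D2:**
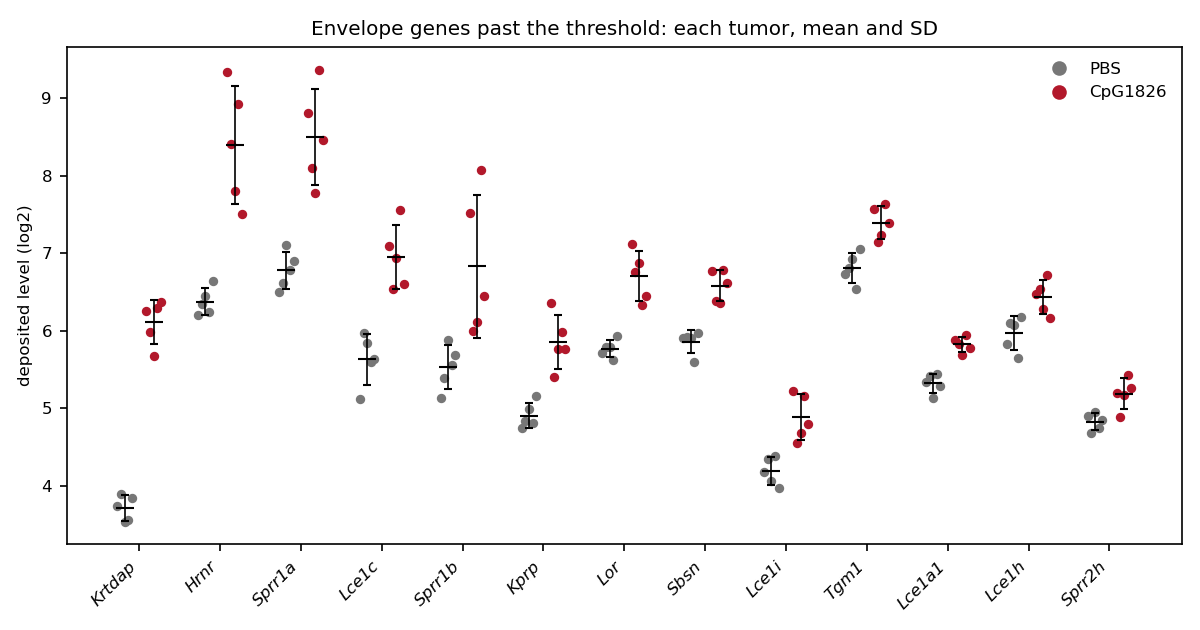
Deposited log2 level (vertical axis) of the 13 envelope genes that rose, 1 point per tumor, grey for 5 PBS and red for 5 CpG1826 tumors, with the mean and SD in black. The groups are separate for 11 of the 13, and touch or overlap for Lce1h and Sprr2h; Krtdap has the widest gap, while Sprr1b spreads from 5.99 to 8.08 in CpG1826 tumors.

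The Lce genes rose in part. Of 13 measured Lce1 genes, whose proteins are made in undamaged skin, 4 rose: Lce1c, Lce1i, Lce1a1 and Lce1h. Lce1c was at 5.12, 5.97, 5.84, 5.60 and 5.64 in PBS and at 7.10, 6.54, 6.94, 7.56 and 6.61 in CpG1826 tumors. It rose 2.49-fold (1.87 to 3.31, limma adjusted p = 0.00104), with no overlap. Lce1i was at 4.18, 4.34, 4.06, 4.38 and 3.97, and at 5.22, 4.56, 4.68, 5.17 and 4.80, a rise of 1.62-fold (1.33 to 1.97). Lce1a1 rose 1.42-fold (1.26 to 1.59), from a PBS range of 5.13 to 5.44 to a CpG1826 range of 5.69 to 5.95. The Lce1a1 groups were thus separate although the change was small. Lce1h overlapped, from 5.66 to 6.18 and from 6.16 to 6.73, and its call (1.38-fold, limma adjusted p = 0.0429) was lost in 8 of the 10 fits that leave out 1 mouse, all but those without PBS mouse 661 or CpG1826 mouse 595 (limma adjusted p of 0.0254 to 0.111 over the 10). The other 9 Lce1 genes ran from -0.15 for Lce1a2 to 0.26 for Lce1j. How far the probes of this family cross-hybridise was not tested.

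Lce3 genes are known for rising in wounded and inflamed skin. None of the 5 measured passed (0 by limma, 1 at an unadjusted p under 0.05). Lce3c was at 5.57, 5.53, 5.30, 5.04 and 4.87 in PBS and at 6.92, 5.33, 5.93, 7.19 and 5.89 in CpG1826 tumors. The tumor of mouse 58 lay inside the PBS range and those of mice 50 and 189 well above it. Its log2 fold change of 0.99 had an interval of 0.35 to 1.63 (limma adjusted p = 0.0875), and leaving out mouse 58 brought it past the threshold (1.22, limma adjusted p = 0.0169; 0.0169 to 0.197 over the 10 fits without 1 mouse). Lce3a, Lce3b, Lce3e and Lce3f were at 0.05, -0.17, -0.17 and 0.32, and Lce6a, the remaining member of the family, at 0.10.

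The 3 remaining late genes lay between these extremes. Kprp, a keratinocyte proline-rich protein gene, was at 4.74, 4.84, 4.99, 4.81 and 5.15 in PBS and at 6.35, 5.41, 5.76, 5.98 and 5.76 in CpG1826 tumors. It rose 1.93-fold (1.55 to 2.39, limma adjusted p = 0.00147), with no overlap. Cnfn, which encodes cornifelin, was at 6.60, 6.69, 6.58, 6.62 and 6.74, and at 7.34, 6.77, 6.93, 7.73 and 7.05. Its groups did not overlap, yet with a log2 fold change of 0.51 (0.21 to 0.82) it did not pass (limma adjusted p = 0.0632). It did pass under array weights (limma adjusted p = 0.0499), under a trended prior (0.0408) and once mouse 58 was left out (0.0209; 0.0209 to 0.149 over the 10 fits without 1 mouse), and when only genes above the median level were tested (0.0356). Crct1 was at 0.24 (0.04 to 0.44, limma adjusted p = 0.216).

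Along chromosome 3 the rises were scattered among the genes with a probe of their own. The order on other chromosomes was not examined. By the RefSeq order, 39 of the 44 members lie on chromosome 3, in a run of 44 measured genes from Lor to Rptn, and 10 of these 39 rose. The others are Tgm3 on chromosome 2, Cnfn, Sbsn and Krtdap on chromosome 7, and Tgm1 on chromosome 14. Lce1h and Lce1i were the only neighbours among the 44 measured genes of the run that both rose. Sprr1b and Sprr1a are separated by Sprr3 at 0.04, and Hrnr stands between Flg2 at 0.45 and Rptn at 0.26. The run of 9 Sprr2 genes with a probe of their own held 1 rise. The Sprr2a genes have no such probe and are not in this order. Shared probes that name them were 4.68-fold and 2.74-fold higher and are described in the closing section. The 5 measured genes of the run that are not envelope members by the rule, Prr9, Lelp1, Smcp, Tdpoz8 and Crnn, were at 0.39, 0.04, -0.02, 0.12 and 0.04 and missed the threshold.

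**Figure D3:**
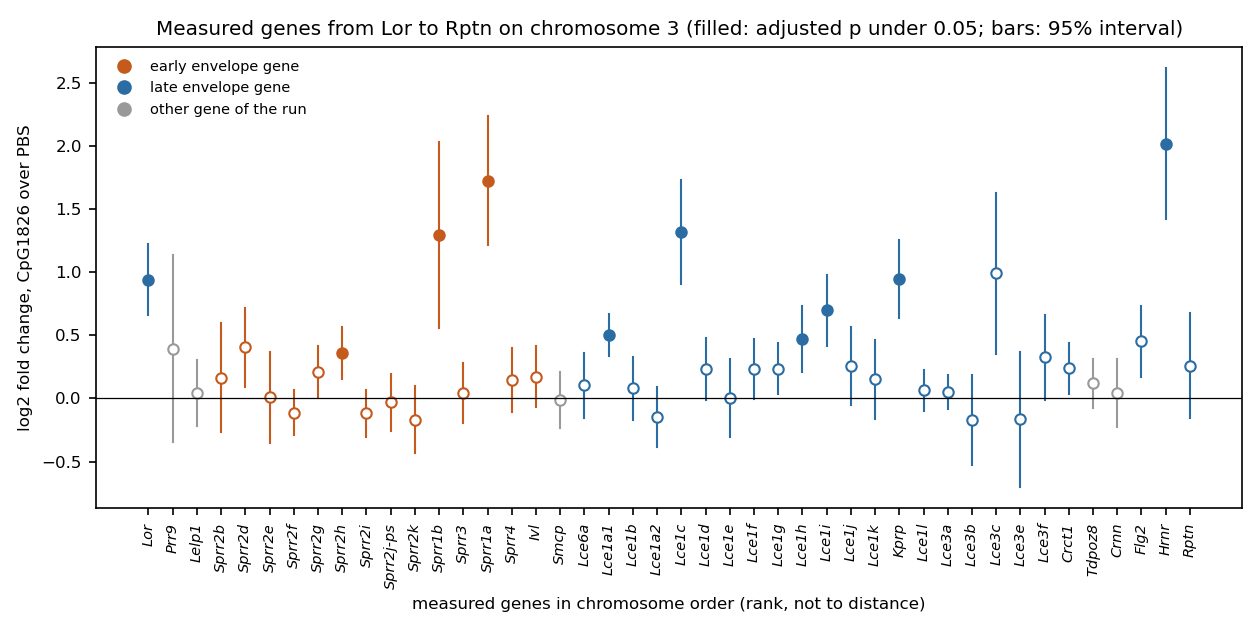
Log2 fold change (vertical axis, bars are 95% confidence intervals) of the 44 measured genes from Lor to Rptn on mouse chromosome 3, in genome order by rank and not by distance. Orange marks early envelope genes, blue late ones and grey the 5 others; filled points passed an adjusted p under 0.05, and the 10 filled points are spread along the run among open ones, with Lce1h and Lce1i side by side.

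The CpG1826 tumors did not share 1 profile over the envelope genes. Among the 13 genes that rose, the tumor of mouse 189 was the highest of the 5 for 8 and that of mouse 50 for 4, and for 9 genes these 2 tumors took the top places. The exceptions were Krtdap, Lor, Lce1h and Sprr2h. Over all 44 members mouse 189 was the highest for 28. Relative to the PBS mean, Sprr1b was higher by 1.99 and 2.54 in mice 50 and 189 and by 0.46, 0.58 and 0.91 in mice 58, 183 and 595. Krtdap, in contrast, was higher by 1.96 to 2.66 in all 5. Without CpG1826 mouse 189, 10 of the 44 genes rose, and without mouse 50, 10. The count was also 10 when PBS mouse 26, 29, 482 or 592 was left out, so the drop is not particular to these 2 tumors.

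Several keratin genes of the epidermis, which the rule did not use, were higher in the same tumors. Krt5 and Krt14, the keratin pair of basal keratinocytes, were higher by 2.95 and 2.60 on the log2 scale (7.75-fold and 6.05-fold), and Krt1 and Krt10, the pair of the layers above, by 3.06 and 2.05 (8.35-fold and 4.13-fold). Krt2, of the upper layers, and Krt15, of basal cells, were at 0.09 and 0.26 and did not pass. Krt6b, a keratin of wounded epidermis, was at 4.92, 4.70, 4.91, 4.13 and 5.10 in PBS and at 9.09, 7.26, 6.77, 9.72 and 8.18 in CpG1826 tumors. Its 2 highest tumors were those of mice 189 and 50, as for Sprr1a, Sprr1b and Lce3c. Krt1 was highest in mouse 50 (9.89) and lay between 8.31 and 8.77 in the other 4, and Krt5 was highest in mouse 189 (9.79).

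**Figure D4:**
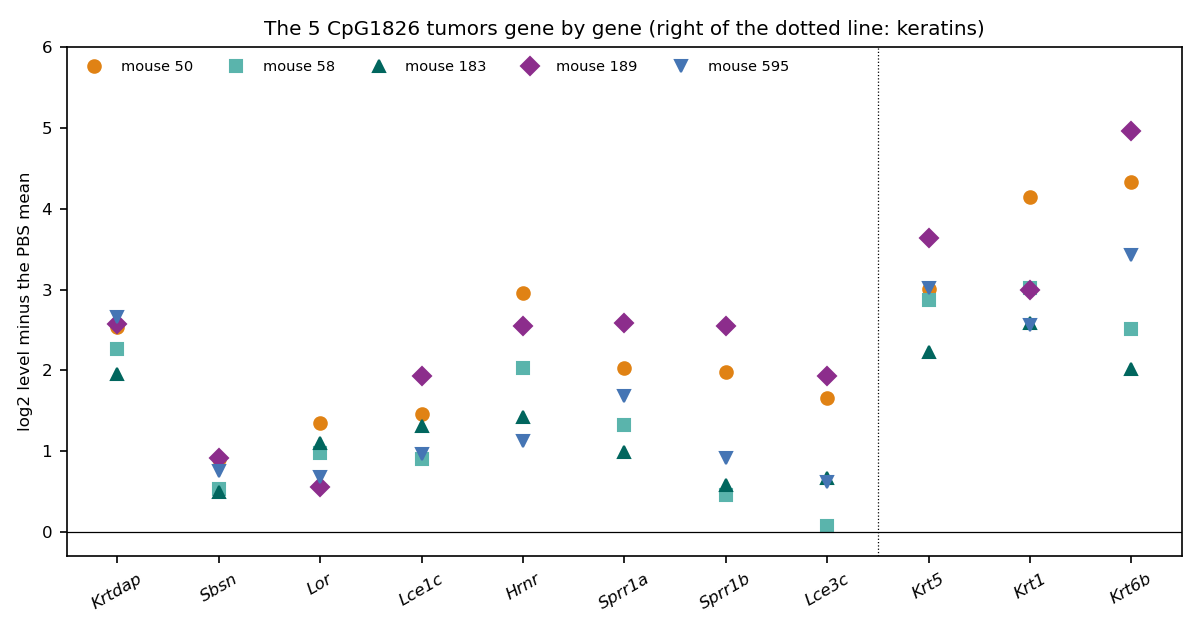
Log2 level minus the PBS mean (vertical axis) in each of the 5 CpG1826 tumors for 8 envelope genes and, right of the dotted line, 3 keratins; each symbol is a mouse. Krtdap lies between 1.96 and 2.66 in all tumors, while Sprr1b and Lce3c separate mice 50 and 189 from the other 3.

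The wider cornification machinery was raised in part. Of 12 measured scaffold and cross-link genes, 2 rose and 0 fell (limma; 5 higher and 0 lower at an unadjusted p under 0.05), with a median log2 fold change of 0.23: Dsp, which encodes desmoplakin (3.92-fold, 2.93 to 5.26), and Perp, a desmosome protein gene (2.96-fold, 2.31 to 3.79). Of 16 lipid envelope genes, 3 rose and 0 fell (6 and 1 at an unadjusted p under 0.05), with a median of 0.13. These were Abca12, the lipid transporter of lamellar granules (0.56), Elovl4 (0.42) and Cers3 (0.39), which build very long chain ceramides. Of 19 corneodesmosome and protease genes, 4 rose and 0 fell (8 and 0 unadjusted), at a median of 0.08. They were Asprv1, a protease that trims filaggrin (3.33-fold, 2.53 to 4.39), Klk7, a protease of corneocyte shedding (2.35-fold, 1.76 to 3.14), its inhibitor gene Spink5 (1.94-fold) and the desmoglein gene Dsg1b (1.58-fold). Of 13 transcription factors of epidermal differentiation, 2 rose and 0 fell (5 and 1 unadjusted), at a median of 0.21: Prdm1 (0.47) and Zfp750 (0.38). Prdm1 is also made by lymphocytes and myeloid cells.

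Many, but not all, markers of the keratinocyte itself were also higher in CpG1826 tumors. Of 15 measured basal keratinocyte genes 8 rose and 0 fell (11 and 0 at an unadjusted p under 0.05). The other 7 did not pass, among them Trp63 at 0.25, Itgb4 at 0.01 and Itga6 at -0.14 on the log2 scale. Over the 15 genes the median log2 fold change was 0.32. Their mean level ran from 6.30 to 6.65 in PBS and from 7.18 to 7.85 in CpG1826 tumors. Of 7 genes of the suprabasal layers 6 rose, with a mean level of 5.38 to 5.92 and 6.84 to 7.51, and of the 4 wound keratins 4 rose, with 5.02 to 5.44 and 6.92 to 8.99. The basal genes with the largest rise after Krt5 and Krt14 were Dsc3 (4.89-fold) and Perp. Perp was counted in the scaffold and cross-link list too. In the layers above, Dmkn (2.93-fold) and Calm4 (2.56-fold) came after Krt1 and Krt10. Krt6b, Krt16, Krt6a and Krt17 rose 10.9-fold, 5.69-fold, 5.11-fold and 4.14-fold. Their part in the rise of the envelope genes was not tested. Of 9 sebaceous gland genes 2 rose, Krt79 (2.28-fold) and Far2 (1.54-fold), with a mean level of 4.83 to 5.08 and 5.07 to 5.34. The other 7 did not pass, and the median log2 fold change over the list was 0.01.

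Most lists for other skin and tumor cells held no gene that passed, beside 4.66% of all genes that passed in either direction. At that share lists this short can hold none, so these counts do not show that such cells were unchanged. By limma 0 of 19 hair follicle genes passed (0 also at an unadjusted p under 0.05, mean level 5.52 to 5.87 in PBS and 5.40 to 6.56 in CpG1826 tumors), the trichohyalin gene Tchh at 0.43 and Krt33b at 0.01. Tchh stood at 8.89 in mouse 58 and at 6.01 to 6.51 in the other 4 CpG1826 tumors. Among CpG1826 tumors Krt25 (8.32) and Krt71 (8.79) were also highest in mouse 58, as were Krt27, Krt73, Krt33a and Krt86. Krt33b, Krt34, Msx2 and Foxn1, among others, were not. The tumor of mouse 58 was the lowest of the 5 for 6 of the 13 envelope genes that rose. The part of follicles in these values was not tested. The counts were 0 of 7 melanocyte, 0 of 7 adipocyte, 0 of 10 skeletal muscle and 0 of 10 dermal fibroblast genes. At an unadjusted p under 0.05 they were 0, 0, 1 lower and 1 lower. All 10 muscle genes had a log2 fold change below 0, at a median of -0.19, and this shared direction was not tested. Pmel and Mlana were at 0.06 and -0.06, Plin4 and Cidec at -0.08 and -0.19, Acta1 and Tnnt3 at -0.25 and -0.34, and Col1a1 and Dcn at -0.28 and 0.09. The mean levels were 4.97 to 5.25 in PBS and 5.01 to 5.34 in CpG1826 tumors for melanocyte genes, 5.22 to 5.53 and 5.29 to 5.50 for adipocyte genes, 7.03 to 7.49 and 6.72 to 7.46 for muscle genes, and 9.31 to 9.53 and 9.09 to 9.54 for fibroblast genes. Of 3 measured Langerhans cell and epithelial adhesion genes and of 13 colon carcinoma epithelium genes, the same 2 rose, Cdh1 (1.55-fold) and Epcam (1.25-fold), which keratinocytes or Langerhans cells make too. The third Langerhans gene, Cd207, which encodes langerin and defines these cells, was at 0.03 and did not pass. The Langerhans list had a mean level of 5.63 to 5.82 in PBS and 5.86 to 6.27 in CpG1826 tumors, without overlap. Krt8, Krt18 and Krt19, keratins of simple epithelia such as the colon, were at 0.12, -0.11 and -0.02, and without detection calls their presence was not judged. The carcinoma list had a mean level of 5.44 to 5.66 in PBS and 5.50 to 5.84 in CpG1826 tumors.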

How the data were processed

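Values were used as the authors deposited them, on what the numbers show to be a log2 scale (2.03 to 14.70, array medians 6.47 to 6.53). Per the submitters' processing notes, R 2.7.1 and limma were used; how the arrays were background-corrected and normalized could not be read from these sources. Low levels are compressed on such arrays, which can shrink fold changes of dim genes, and no detection calls were used.

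Of 35512 probes, 21789 carry exactly 1 symbol in the platform annotation, 1621 several and 12102 none. Where a gene had several probes, the brightest on average across the 10 arrays stood for it, leaving 19938 genes; 21698 probes matched a RefSeq gene (GRCm38.p6) with 0 symbols changed. The test was limma's moderated linear model (limma 3.58.1, R 4.3.3, two-sided), with Benjamini-Hochberg adjustment over all genes and a threshold of 0.05. On simulated data for this comparison (19938 genes), the fit recovered 73 of 100 genes changed by 0.5 and 96 of 100 changed by 1 on the log2 scale, with 6 unchanged genes among 175 calls. The simulated noise had the same spread in both groups, and the full change was added at any level. Recovery of dim genes, or of genes with unequal spread such as Hrnr, may therefore be lower. The number of arrays limits the precision.

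All members are named; from each other list up to 4 called genes with the largest change are named, or the 2 with the highest level, with Krt1, Krt5, Krt10 and Krt14 always. Krt8, Krt18, Krt19 and the neighbours on chromosome 3 were named after their values were seen, as were Krt2, Krt15, Cd207, Trp63, Itgb4 and Itga6. The same holds for the hair follicle genes other than Tchh and Krt33b. The members and lists were chosen with earlier results of these data known, as were the promoter motifs. Other settings tried were median centring, quantile normalization on top of the deposited values, 2 filters on low levels, a trended and robust prior, the mean of a gene's probes, array weights, leaving out each mouse, and other early classes. Of the 44 members, 22 lay above the bottom 25% of genes by mean level and 6 above the median level.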

Additional observations from a re-analysis of the deposited data

Results flagged for a closer look

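Probes that carry several symbols were outside the gene test, and those of the Sprr2a genes gave a signal above the PBS level. The probes in this paragraph were picked because all 5 CpG1826 values lay above all 5 PBS values. That choice fixes the result of an exact permutation test, so no p is given. A probe shared by Sprr2a1, Sprr2a2, Sprr2a3 and Sprr2b averaged 7.17 ± 0.17 (SD, n = 5) after PBS and 9.40 ± 1.21 (SD, n = 5) after CpG1826, 4.68-fold higher. Its CpG1826 values were 10.20, 8.87, 8.12, 11.08 and 8.72 for mice 50, 58, 183, 189 and 595, with mice 189 and 50 again the highest. A probe shared by Sprr2a1 and Sprr2a3, present under 2 identifiers with the same values and counted once, averaged 6.44 ± 0.13 (SD, n = 5) after PBS and 7.89 ± 0.91 (SD, n = 5) after CpG1826. Which of the named genes gave the signal cannot be told apart. The probe of Sprr2b alone had a log2 fold change of 0.16 and was not picked by that rule.

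In 5 of 88 groups of 5 tumors, 1 tumor stood apart from the others, and chance alone gives about 1 in 20. In CpG1826 tumors both cases were mouse 189, at 4.56 for Lce3f and 5.25 for Rptn. In PBS tumors mouse 592 was low for Sbsn (5.60) and Sprr4 (5.35), and mouse 26 was high for Tgm3 (6.08).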

How the results depend on the processing

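No paired analysis was possible because no mouse number occurs in both groups. With 1 mouse left out, the 10 fits gave 10 to 14 members that rose (early 4 to 6, late 6 to 8), with 0 lower in each, and 702 to 827 genes of all tested passed against 930 with all mice. The medians then ran from 0.13 to 0.23 for early and from 0.17 to 0.31 for late genes. In all 10 such fits 10 of the 13 kept their call; Sprr1b, Lce1h and Sprr2h did not. No member that rose changed direction under any alternative run, while 5 members that did not pass changed sign in at least 1. With the bottom 25% of genes by level left out, 10 members rose and the early median was 0.65; Krtdap, which has the largest rise, Lce1i and Sprr2h lie in that 25% and were not tested there; with those below the median level left out, 6 members remained, of which 4 rose (2 early and 2 late), at an early median of 1.15. With the Sprr genes counted as late, 3 early genes rose, at an early median of 0.65. These shifts follow from which genes are counted. Detection calls and signal over background were not used, so small changes of dim Lce and Sprr2 genes could not be judged.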

Other observations

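A probe that carries 6 Lce3 symbols averaged 8.30 ± 0.29 (SD, n = 5) after PBS and 8.31 ± 0.30 (SD, n = 5) after CpG1826 (p = 0.968 by a two-sided exact permutation test), beside a log2 fold change of 0.99 for the probe of Lce3c alone. The promoter windows of Sprr2a1 and Sprr2a2, which have no probe of their own, were identical over 300 of 300 bases. A form of the NF-κB motif stood on either strand in 3 of the 40 member windows, against 20.7% of all windows, and TTCNNNGAA, a STAT motif, in 3, against 8.30%.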
